A study of Mus musculus with 12 samples.

Results

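D6 cells were compared with D4 cells, 3 arrays each, which are 6 of the 12 arrays of a study of dividing mouse CD4 T cells. Both groups descend from naive CD4 T cells with the transgenic DO11.10 receptor, which recognises an OVA peptide. These cells carried CFSE, a dye diluted at every division, when they were given to Balb/c hosts, and the hosts then received the OVA peptide emulsified in CFA, complete Freund's adjuvant. Lymph nodes were taken 66 to 72 hours later and effectors were sorted by remaining dye. The labels describe D6 as effectors that had divided 5 times and D4 as effectors that had divided 3 times. Strain, tissue, antigen, adjuvant and harvest window were shared by D6 and D4, and arrays of the same number came from the same independent experiment. Per the design text, D4 cells readily turned into memory cells after transfer to new hosts, whereas D6 cells had a reduced potential to do so. The comparison therefore asks which genes differ between cells with more and with less of that potential. Memory potential and number of divisions differ together between D6 and D4, so they cannot be told apart here. Neither the age of the animals nor the number of hosts pooled is given, and the sort is described by dye content alone, with no gate on the transgenic receptor. D3 and D8 (divided 2 and 7 times) enter the same model, where they add to the estimate of spread behind every call below, and they also set the D6 to D4 difference against the neighbouring steps.

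Activated CD4 T cells divide rapidly for several days, and most of their progeny die once antigen is cleared. A minority persists as memory cells. Survival at that point depends on the balance of the BCL2 family, in which BH3-only proteins such as BIM (Bcl2l11) and PUMA (Bbc3) trigger apoptosis and BCL2 and MCL1 restrain it. Division itself is driven by waves of transcription: E2F factors switch on replication genes in S phase, and the DREAM and MMB complexes, together with NF-Y and FOXM1, control G2 and mitosis genes through promoter elements called CHR (cell cycle genes homology region) and CCAAT boxes. Genes induced by type I interferon carry a different promoter element, the ISRE.

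The promoters of 5 genes that were higher in D6 are shown because most detected mitosis genes and some type I interferon genes rose. They were picked among called members that hold the motif and have a single listed promoter, so a match in all 5 follows from the choice. Birc5 and Oas2, which rose more than some genes shown, were passed over by this rule. Rsad2 and Ckap2 met the rule but are not shown, although Rsad2 rose more than Oas3 (0.85 against 0.74 on the log2 scale). Each covers 250 bases before and 50 bases after an annotated start, from RefSeq on build GRCm38.p6, written 5′ to 3′ on the strand of the gene. Capitals mark CHR and CCAAT letters on either strand in the first 3 (mitosis genes) and ISRE letters in the other 2 (interferon genes). Cdc25b lies at chr2:131186698-131186997 (plus strand), Cdca3 at chr6:124829926-124830225 (plus strand), Plk1 at chr7:122159185-122159484 (plus strand), Ifitm3 at chr7:141010695-141010994 (minus strand) and Oas3 at chr5:120777610-120777909 (minus strand).
Cdc25b: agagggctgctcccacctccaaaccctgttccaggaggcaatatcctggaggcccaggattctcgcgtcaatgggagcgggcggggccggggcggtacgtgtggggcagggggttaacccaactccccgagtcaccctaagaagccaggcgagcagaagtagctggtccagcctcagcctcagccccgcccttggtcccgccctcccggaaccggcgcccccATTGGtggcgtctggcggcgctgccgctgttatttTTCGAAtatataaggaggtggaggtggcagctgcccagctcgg
Cdca3: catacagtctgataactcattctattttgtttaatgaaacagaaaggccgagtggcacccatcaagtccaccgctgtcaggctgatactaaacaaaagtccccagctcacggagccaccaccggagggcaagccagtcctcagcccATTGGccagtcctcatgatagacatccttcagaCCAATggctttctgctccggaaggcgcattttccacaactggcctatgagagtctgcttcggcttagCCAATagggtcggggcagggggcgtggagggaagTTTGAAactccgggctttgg
Plk1: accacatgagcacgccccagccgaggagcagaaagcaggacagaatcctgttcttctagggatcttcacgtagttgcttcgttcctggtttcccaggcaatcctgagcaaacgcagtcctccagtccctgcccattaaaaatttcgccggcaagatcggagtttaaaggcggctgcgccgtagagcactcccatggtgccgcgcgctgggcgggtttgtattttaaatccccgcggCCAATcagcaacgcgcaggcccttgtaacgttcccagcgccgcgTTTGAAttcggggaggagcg
Ifitm3: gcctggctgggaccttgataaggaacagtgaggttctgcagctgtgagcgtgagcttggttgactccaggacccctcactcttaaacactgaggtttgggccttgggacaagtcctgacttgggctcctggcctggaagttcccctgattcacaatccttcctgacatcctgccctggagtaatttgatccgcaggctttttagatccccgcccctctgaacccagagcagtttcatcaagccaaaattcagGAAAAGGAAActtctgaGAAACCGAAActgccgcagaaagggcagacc
Oas3: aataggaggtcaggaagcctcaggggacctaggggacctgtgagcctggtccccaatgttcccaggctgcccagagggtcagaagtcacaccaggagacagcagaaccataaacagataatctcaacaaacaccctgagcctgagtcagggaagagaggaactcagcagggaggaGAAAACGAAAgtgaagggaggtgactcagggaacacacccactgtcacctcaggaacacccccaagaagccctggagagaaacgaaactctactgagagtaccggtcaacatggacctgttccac

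In these windows the CHR of Cdc25b began 8 bases into the transcript, counting the start as base 1, with a CCAAT box at base -28, counting upstream from -1. Cdca3 had a CHR at base 31 and 3 CCAAT boxes, and Plk1 had a CHR at base 31 and a CCAAT box at base -14. Ifitm3 had 2 ISRE matches, at bases 3 and 20, and Oas3 had 1 match, at base -75. In promoters not shown, the ISRE of Rsad2 began at base -120 and the CHR of Ckap2 at base -101. The letters searched were TTTGAA or TTCGAA for the CHR, CCAAT for the CCAAT box, and GAAA repeated after any 2 bases for the ISRE, on both strands, and none of these motifs overlapped another in the windows shown. Cdca3 also held ISRE letters and Oas3 CCAAT letters, which are left in lower case. A CHR match occurred in 15 of the 19 detected G2 and mitosis genes with a promoter in the table (78.9%). The same letters occurred in 32.7% of the genes called higher in D6 (119 of 364), in 14.5% of those called lower (44 of 304), in 16.7% of all genes tested (1218 of 7294) and in 21.7% of all 27025 genes in the promoter table. CCAAT letters were common everywhere, in 73.7% of the G2 and mitosis genes, 50.3% of genes called higher, 44.4% of genes called lower and 43.5% of genes tested (41.1% of the whole table). ISRE letters were in 8 of 16 type I interferon genes (50%), against 3.76% of genes tested and 3.99% of the table. These shares count a gene with a match in any of its listed promoters, and a match is a description of the sequence, not a binding site.

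**Figure D1:**
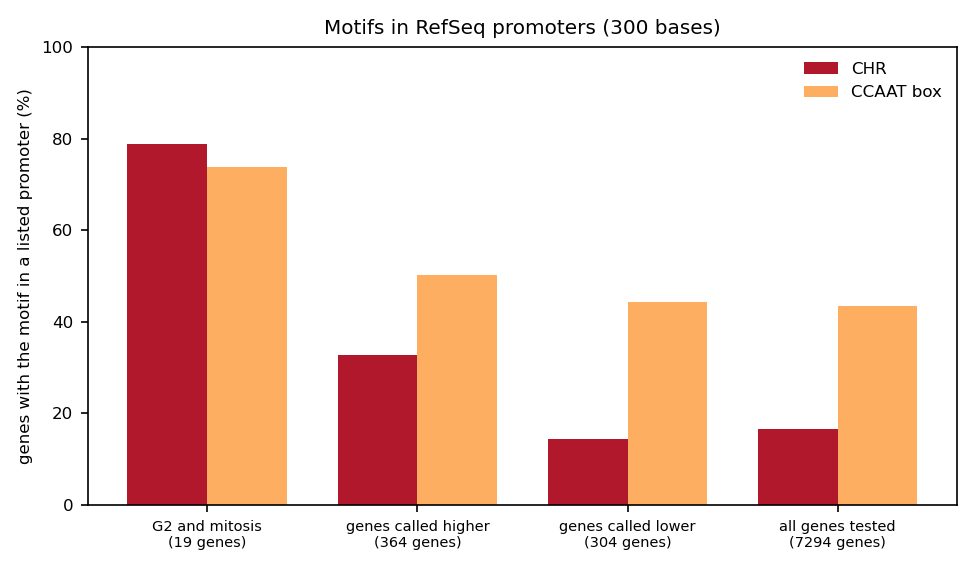
Share of genes (percent, axis from 0 to 100) with CHR or CCAAT letters in a listed promoter, for detected G2 and mitosis genes, genes called higher in D6, genes called lower in D6 and all genes tested, with the number of genes under each pair of bars. The CHR share was 78.9% for G2 and mitosis genes and 32.7% for genes called higher, against 16.7% for all genes tested.

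RNA was measured on Illumina bead arrays with 45281 probes, of which 16394 passed the detection threshold (p under 0.05) in 3 or more of the 6 D6 and D4 arrays. D6 arrays had 16126 to 16666 detected probes and D4 arrays had 15678 to 16527, and median intensities were 44.7 to 48.9 in D6 and 45.5 to 49.3 in D4. Levels below are normalised log2 intensities of the brightest detected probe of a gene, differences are D6 minus D4 on that log2 scale ± SE, and levels of different genes are not compared, since probes differ in response. A gene is said to rise or fall where the adjusted p was under 0.05 (limma with the experiment as a block, Benjamini-Hochberg over all 16394 probes). The T cell genes Cd3e and Cd4 overlapped between the groups: Cd3e had 13.17, 13.32 and 13.29 in D6, against 13.18, 13.42 and 13.38 in D4, and Cd4 had 7.99, 8.40 and 8.35 in D6, against 8.03, 8.25 and 8.33 in D4. Of 20 detected genes of the T cell receptor complex and its proximal signalling, 0 were called by limma (3 at an unadjusted p under 0.05), with a median difference of 0.05, although their summed linear intensity was 59977 to 60996 in D6, below the 63725 to 66939.5 in D4. Some defining markers of other cells were not detected on any of the 6 arrays, for B cells (Pax5, Blk, Cr2), CD8 T cells (Cd8a), NK cells (Ncr1, Klrb1c), macrophages and granulocytes (Itgam, Adgre1, S100a9), dendritic cells (Itgax, Flt3, H2-Aa), plasma cells (Jchain, Sdc1, Tnfrsf17) and stroma (Col1a1, Col3a1). Other markers on the same lists were detected on all 6 arrays, namely Cd22 and Cd72 (B cells), Cd8b1 (CD8 T cells), Klrd1 and Nkg7 (NK cells), Lyz1 (myeloid cells), Zbtb46, H2-Ab1, H2-Eb1 and Cd74 (dendritic cells), Irf4 and Xbp1 (plasma cells) and Pecam1 (endothelium). The linear intensity of Cd8b1 was 2563 to 3247 in D6, against 2854 to 3375 in D4, and the summed dendritic markers were 219 to 341 in D6, against 241 to 290 in D4. In such bulk samples, fewer cells of a type and less RNA per cell cannot be told apart.

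Between D6 and D4, 1370 of 16394 probes were called (8.36%), 753 higher (4.59%) and 617 lower (3.76%). By the brightest probe of each gene, 827 of 8891 genes were called (9.3%), of which 455 rose (5.12%) and 372 fell (4.18%), and the median over all 8891 genes was -0.0039. These shares are the background for every list count below. Most differences were small: 50 genes rose and 34 fell by more than 2-fold. Most called genes also moved the same way across the other divisions. Of the 455 that rose, 387 had a still higher mean in D8 and 358 a lower mean in D3 than in D4. Of the 372 that fell, 330 had a still lower mean in D8 and 293 a higher mean in D3 than in D4. The same counts were not made over all genes tested, so these have no background to be read against. The sign was the same in all 3 experiments for 826 of the 827 called genes, against 47.3% of all genes tested. D6 and D4 values did not overlap for 745 of the called genes (90.1%), against 23.2% of all genes tested. The genes were called on these same arrays with the experiment as a block, so both results follow largely from the selection and are not replication. Across the 8891 genes, which are not independent replicates, the D6 minus D4 differences of experiments 1 and 2, 1 and 3, and 2 and 3 correlated at 0.559, 0.615 and 0.532. When single arrays were left out in turn, 323 of the 827 genes were called in all 12 fits, and 81 of the 84 genes past 2-fold were. Without the experiment as a block, 356 of the 827 genes were called. With only the 6 D6 and D4 arrays and the block, 905 probes were called. With arrays centred on their medians in place of quantile normalisation, 403 probes were called higher and 546 lower, so the balance of directions depends on the scaling.

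**Figure D2:**
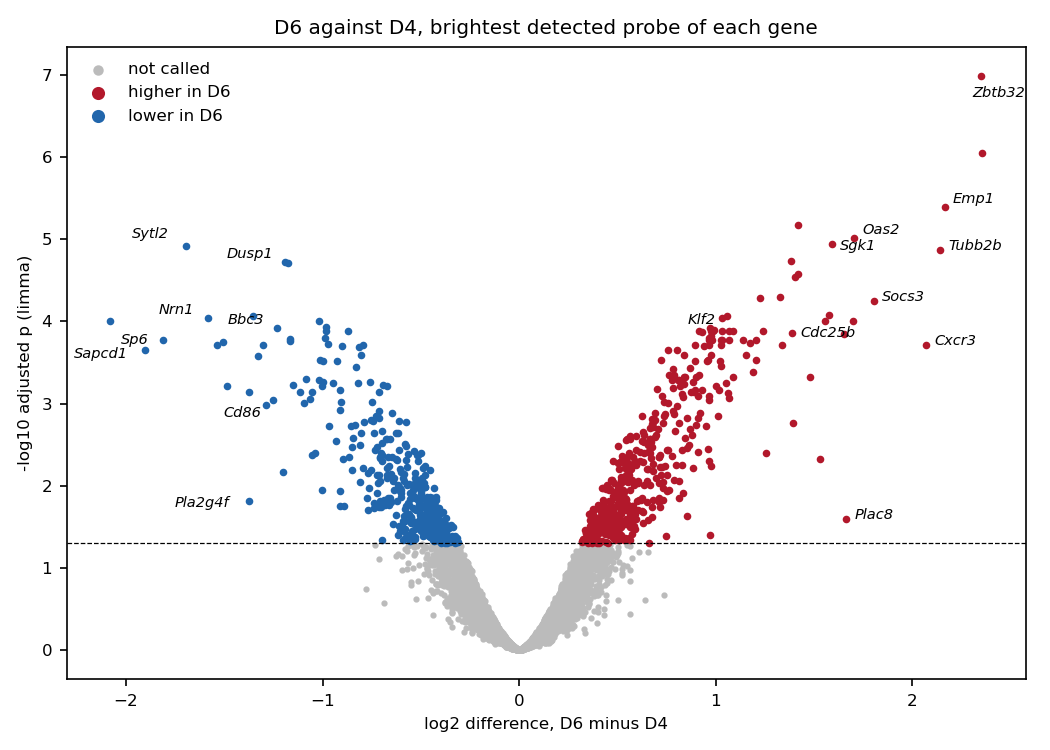
Log2 difference (D6 minus D4, horizontal) against -log10 of the limma adjusted p (vertical) for the brightest detected probe of each of 8891 genes, with a dashed line at 0.05. Red points are the 455 genes that rose in D6 and blue points the 372 that fell, and Zbtb32, Emp1 and Tubb2b lie farthest to the right among the labelled genes.

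The largest increases in D6 among genes detected on all 6 arrays were in a transcriptional repressor, membrane and cytoskeletal proteins, a chemokine receptor and a signalling inhibitor. Zbtb32, a BTB zinc finger repressor induced in activated lymphocytes, had log2 levels of 8.59, 8.28 and 7.99 in D6, against 6.28, 5.78 and 5.76 in D4. The lowest D6 array exceeded the highest D4 array by more than the range of either group, and the gene rose by 2.35 ± 0.10 (5.09-fold, adjusted p = 1.02e-07). Emp1, a tetraspan membrane protein, had 8.62, 8.23 and 8.68 in D6, against 6.45, 6.48 and 6.11 in D4, and rose by 2.16 ± 0.13 (adjusted p = 4.08e-06). The D6 and D4 arrays of Emp1 were also far apart, with the smallest difference in experiment 2. Cxcr3, the receptor for the interferon-induced chemokines CXCL9, CXCL10 and CXCL11, had 7.86, 8.77 and 7.98 in D6, against 5.83, 6.29 and 6.28 in D4. D6 of experiment 2 stood above the other D6 arrays, and the difference was 2.07 ± 0.24 (adjusted p = 0.000195). Socs3, which blocks signalling from receptors of the IL-6 family, had 9.96, 9.37 and 9.95 in D6, against 7.80, 7.67 and 8.40 in D4, and rose by 1.80 ± 0.16 (adjusted p = 5.66e-05). Here too no D4 array reached the lowest D6 array.

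Sgk1, a kinase activated downstream of PI3 kinase, had 10.60, 10.17 and 10.94 in D6, against 8.93, 8.75 and 9.26 in D4 (1.59 ± 0.11, adjusted p = 1.13e-05). Tubb2b, a beta-tubulin, had 9.78, 9.57 and 10.07 in D6, against 7.37, 7.68 and 7.94 in D4 (2.14 ± 0.16, adjusted p = 1.37e-05). Both were higher on every D6 array, but the other 4 detected probes of Tubb2b gave only 0.35 to 1.18, and tubulin genes are close copies whose probes may share signal, which was not tested. Oas2, which makes the oligoadenylate activator of RNase L, rose by 1.70 ± 0.12, Anxa2, a membrane-binding annexin, by 1.65 ± 0.18, Kcnk5, a potassium channel, by 1.58 ± 0.15, Pif1, a DNA helicase, by 1.42 ± 0.12, and Cemip2, a membrane hyaluronidase, by 1.42 ± 0.10. The sperm-membrane protein gene Zan (1.70 ± 0.17) and the receptor gene Gpr146 (1.38 ± 0.11) also rose, as did Cdc25b, described with the mitosis genes below. Of the 15 largest increases, 14 were called in all 12 single-array omissions. Pif1 and Cemip2 also had weaker probes, at 0.65 for Pif1 and 0.60 and 1.11 for Cemip2. Plac8 had 6.53, 9.0 and 6.97 in D6, against 5.73, 5.96 and 5.83 in D4, so its difference (1.66 ± 0.41, adjusted p = 0.0255) rested largely on experiment 2. Its call was lost without D4 replicate 2 or D6 replicate 2 or 3 (adjusted p up to 0.117) and without the block. One gene outside this group rose as far: Chil5, a chitinase-like protein detected on 3 D6 arrays and 1 D4 array, named after its values were seen, had 6.65, 6.97 and 7.19 in D6, against 4.33, 4.70 and 4.72 in D4 (2.35 ± 0.12, adjusted p = 9.03e-07).

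The largest decreases were in genes of mixed function, several known mainly from neural or secretory tissue. Sapcd1, a gene of little described function, had 8.27, 8.81 and 8.46 in D6, against 10.37, 10.56 and 10.33 in D4. All 3 D6 arrays lay more than 1 log2 unit below the lowest D4 array, and the gene fell by 1.91 on the log2 scale (-1.91 ± 0.22, adjusted p = 0.000223). Sp6, a transcription factor of the Sp family, had 5.76, 5.19 and 5.23 in D6, against 7.08, 7.74 and 6.79 in D4 (-1.81 ± 0.20, adjusted p = 0.000168), and its other detected probe gave -1.80. Sytl2, a RAB27-binding protein of vesicle docking, had 7.62, 7.52 and 7.21 in D6, against 9.17, 9.55 and 8.72 in D4 (-1.69 ± 0.12, adjusted p = 1.21e-05). Nrn1, neuritin, had 7.48, 7.14 and 6.57 in D6, against 8.93, 8.59 and 8.41 in D4 (-1.58 ± 0.15, adjusted p = 9.12e-05). For each of these genes D6 and D4 were apart in every experiment. Igsf3 (-1.54 ± 0.17), the convertase chaperone gene Scg5 (-1.51 ± 0.17), the Wnt ligand gene Wnt10a (-1.49 ± 0.20), Tmie (-1.36 ± 0.13), Art4 (-1.33 ± 0.16), Whrn (-1.30 ± 0.15), Sh3bgrl2 (-1.29 ± 0.19) and Slamf9 (-1.20 ± 0.23) also fell, with adjusted p at most 0.00679. The phospholipase gene Pla2g4f fell by 1.37 on the log2 scale (adjusted p = 0.0151), a call lost without D4 replicate 1 or 2 or D6 replicate 1 or 3 (adjusted p up to 0.0886). Arhgap20, named after its values were seen and detected on 2 D6 arrays, had 4.87, 4.70 and 4.88 in D6, against 7.12, 7.31 and 6.26 in D4 (-2.08 ± 0.20, adjusted p = 9.75e-05).

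**Figure D3:**
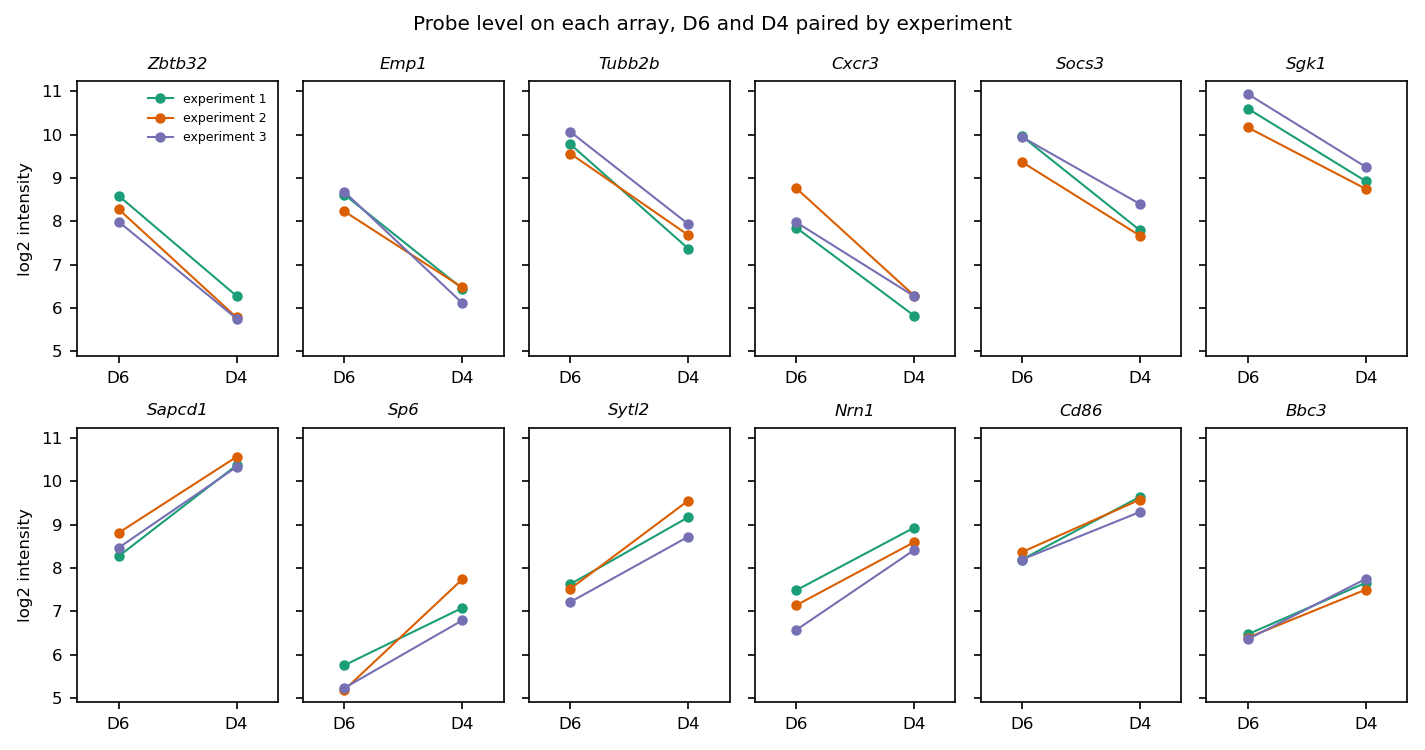
Log2 intensity (vertical, same axis in every panel) of 12 genes on the D6 array (left) and the D4 array (right) of each experiment, joined by a line per experiment. The top row holds genes that rose in D6 and the bottom row genes that fell, and no D6 value of a gene lies within the range of its D4 values.

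Some genes were detected in one division and not in the other, 19 called genes on 3 of 3 D6 arrays and 0 of 3 D4 arrays, and 15 the other way round. With the filter of 3 or more of 6 arrays, these genes passed only through the division where they were high. Their calls are therefore not separate support for a difference, and their adjusted p-values are left out here. For these a least fold is given: the mean of the detected division over a floor, which on each array of the other division is the lowest signal of a detected probe or the probe's own signal, whichever is higher. Il21, a cytokine of follicular helper cells that acts on B cells, had 6.25, 4.85 and 6.48 in D6, against 4.29, 4.46 and 4.23 in D4, at least 2.21-fold higher. D6 of experiment 2 was the lowest D6 array and stood nearest to the D4 values. Il4, the cytokine of Th2 and follicular helper cells, had 5.42, 5.68 and 5.09 in D6, against 4.31, 4.43 and 4.25 in D4, at least 1.60-fold higher. Both cytokine transcripts therefore crossed the detection limit between D4 and D6. Popdc2, a cyclic AMP-binding membrane protein, was at least 2.35-fold higher, Mgarp, a mitochondrial protein, at least 2.29-fold, B3gnt5, a glycolipid glycosyltransferase, at least 1.80-fold and Frmd4b at least 1.66-fold. In the other direction Bmf, a BH3-only protein, had 4.48, 4.52 and 4.47 in D6, against 5.61, 5.78 and 5.60 in D4, and was at least 1.95-fold lower. Lrp11 was at least 1.80-fold lower in D6, Klk1b27, one of several near-identical kallikreins, 1.63-fold, the cation transporter gene Slc22a2 1.56-fold and Adamtsl2 1.44-fold. Mid1, a ubiquitin ligase, was at least 1.36-fold lower, and its call was lost without any 1 of the 3 D4 arrays or D6 replicate 2.

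Most detected mitosis genes rose. Of 24 detected G2 and mitosis genes, out of 35 on the array, 22 rose and 0 fell, with a median difference of 0.93, against 5.12% of genes rising and a median of -0.0039 over all genes tested. Cdc25b, the phosphatase that activates CDK1, had 6.35, 6.36 and 6.70 in D6, against 5.08, 4.98 and 5.18 in D4 (1.39 ± 0.15, adjusted p = 0.000138). Birc5, survivin, had 10.46, 10.42 and 10.34 in D6, against 9.58, 9.28 and 8.93 in D4 (1.14 ± 0.12, adjusted p = 0.000168). Plk1, a kinase of mitotic entry and spindle assembly, had 9.51, 9.26 and 9.13 in D6, against 8.43, 8.35 and 8.03 in D4 (1.03 ± 0.12, adjusted p = 0.000192). In each of these genes the D6 arrays lay above every D4 array, and Cdca3, an adaptor for degradation of WEE1, rose by 1.06 ± 0.10. Other genes of chromosome segregation that rose, by about 1 on the log2 scale, were the aurora kinases Aurka and Aurkb (0.97 ± 0.10 and 0.94 ± 0.11), the spindle protein Tpx2 (0.98 ± 0.11), the checkpoint protein Bub1b (0.92 ± 0.14), the anaphase activator Cdc20 (0.96 ± 0.11) and Cdk1 itself (0.89 ± 0.12). Foxm1, a transcription factor of these genes, rose by 0.75 ± 0.13. Securin, Pttg1 (0.20 ± 0.12), and Ckap2l (0.50 ± 0.15) did not pass. Several members, among them Bub1, Ttk, Cenpe, Ube2c, Nek2 and Ccnb2, were detected on 0 of the 6 arrays and have no value here. Leaving out single arrays gave 20 to 23 genes rising, and the fit without the block gave 17.

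Of 19 detected spindle motors and tubulins, 11 rose, 0 fell and 8 were not called, with a median of 0.57, against 5.12% of all genes rising. Kif2c, a microtubule depolymerase at kinetochores, had 8.51, 8.50 and 8.42 in D6, against 7.53, 7.37 and 7.26 in D4 (1.09 ± 0.11, adjusted p = 0.000129). Kif22 (1.03 ± 0.10), Kif4 (1.03 ± 0.13) and Kif11 (0.93 ± 0.10), motors of chromosome arms and spindle poles, rose to a like extent. The transport motors Kif1b (-0.28 ± 0.13) and Kif3a (-0.12 ± 0.10), which have no comparable role in mitosis, were not called. The fit without the block called 6 of the 19, and leaving out single arrays gave 8 to 12.

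Some replication genes rose. Of 36 detected, 9 rose and 0 fell, with a median of 0.27, against 5.12% of all genes rising. Rrm2, the regulated subunit of ribonucleotide reductase, had 7.77, 7.42 and 7.46 in D6, against 6.86, 6.78 and 6.45 in D4 (0.85 ± 0.15, adjusted p = 0.00348), and Tk1, thymidine kinase, had 9.44, 9.20 and 9.04 in D6, against 8.92, 8.55 and 8.17 in D4 (0.67 ± 0.11, adjusted p = 0.00174). Both are enzymes of deoxynucleotide supply, and their D6 and D4 arrays did not overlap. The origin-loading factor Cdc6 (0.54 ± 0.12, adjusted p = 0.0150) lost its call without D4 replicate 2 or D6 replicate 3 (adjusted p up to 0.0940). The replicative helicase genes Mcm2 (0.29 ± 0.10), Mcm3 (0.19 ± 0.11) and Mcm4 (0.12 ± 0.11) were not called, nor was Pcna (-0.08 ± 0.13), the sliding clamp. The count was fragile: it was 2 without D6 replicate 3, 3 without D4 replicate 1 or D4 replicate 2, 5 without D6 replicate 1 or D6 replicate 2, 6 without D4 replicate 3, and 0 in the fit without the block. The E2F letters TTCCCGC were in 12 of 30 replication promoters (40.0%), against 10% of genes tested and 5.29% of the table. Of homologous recombination and Fanconi genes, 4 of 15 rose, against 5.12% of all genes. The largest differences were in Fancd2 (0.74 ± 0.14) and the translocase gene Rad54b (0.67 ± 0.11). The other detected probe of Fancd2 gave 0.44 and was not called (adjusted p = 0.189). The count for this list was 2 without D4 replicate 1 or 2 or D6 replicate 1 or 3, and 0 without the block.

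Of 7 detected CDK inhibitor genes, 3 rose, 0 fell and 4 were not called, against 5.12% of all genes rising. Cdkn3, a phosphatase that acts on CDK1 and CDK2, had 8.71, 9.04 and 8.59 in D6, against 7.67, 7.74 and 6.96 in D4 (1.33 ± 0.12, adjusted p = 5.10e-05). Cdkn2c, which inhibits CDK4 and CDK6, had 7.52, 7.59 and 7.39 in D6, against 6.49, 6.58 and 6.63 in D4 (0.93 ± 0.13, adjusted p = 0.000688). Cdkn2d, of the same INK4 family, rose by 0.90 ± 0.14. For Cdkn3, Cdkn2c and Cdkn2d every D6 array was above every D4 array. Cdkn1b, p27, had 5.40, 5.87 and 5.53 in D6, against 5.76, 5.94 and 5.47 in D4, with overlapping groups (-0.12 ± 0.14, adjusted p = 0.677). Among 18 G1 cyclins, CDKs and E2F factors 2 rose and 0 fell, against 5.12% of all genes rising. E2f2 rose by 0.89 ± 0.10 (adjusted p = 0.000195), while Ccnd2 (0.16 ± 0.24), Ccnd3 (-0.06 ± 0.13), Cdk4 (-0.11 ± 0.09) and E2f1 (0.16 ± 0.12) were not called. Ccne1, cyclin E1, was also called (0.54 ± 0.15, adjusted p = 0.0424) but lost the call without any 1 of the 3 D6 arrays, D4 replicate 1 or 2, D3 replicate 1 or 2 or D8 replicate 2 (adjusted p up to 0.202). Myc had 5.80, 4.90 and 5.70 in D6, against 5.55, 5.52 and 5.84 in D4 (-0.17 ± 0.15, adjusted p = 0.558), and the MYC antagonist Mxd1 rose by 0.51 ± 0.09 (adjusted p = 0.00514).

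**Figure D4:**
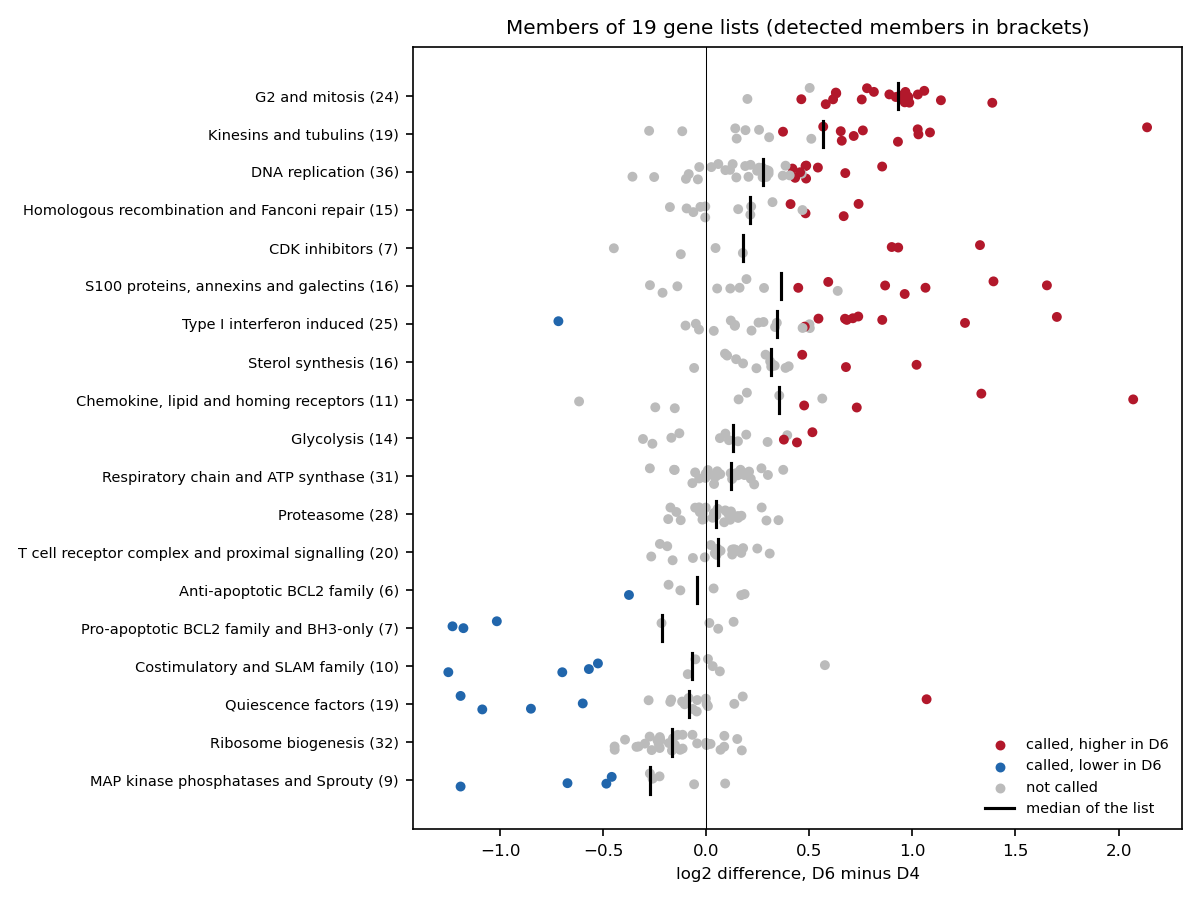
Log2 difference (D6 minus D4) of every detected member of 19 gene lists, 1 point per gene, coloured by whether the gene was called higher or lower in D6, with a black bar at the median of each list. G2 and mitosis genes had a median of 0.93 and 22 of 24 called higher, while MAP kinase phosphatases had 4 of 9 called lower and ribosome biogenesis genes had 0 of 32 called.

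Some death triggers of the BH3-only class fell. Of 7 detected pro-apoptotic BCL2 family genes, 3 fell and 0 rose, against 4.18% of all genes tested falling. The 3 were the BH3-only genes Bbc3, Bmf and Bcl2l11, of which Bmf passed the detection filter only through D4. Bbc3, PUMA, had 6.47, 6.39 and 6.35 in D6, against 7.66, 7.50 and 7.75 in D4 (-1.23 ± 0.12, adjusted p = 0.000121). Bcl2l11, BIM, had 9.13, 8.99 and 9.36 in D6, against 10.51, 9.90 and 10.13 in D4 (-1.02 ± 0.13, adjusted p = 0.000510). D6 arrays lay below every D4 array for both genes. The other detected probes of Bcl2l11 gave -1.01 and -0.42, and the second of these was not called (adjusted p = 0.0960). Bid (-0.22 ± 0.11), Bad (0.06 ± 0.09), Bik (0.13 ± 0.15) and the pore former Bak1 (0.02 ± 0.18) were not called. The calls of Bbc3 and Bcl2l11 were made in every single-array omission and in the fit without the block.

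Of 6 detected anti-apoptotic genes, 1 was called lower in D6 and 0 higher, against 4.18% of all genes called lower. Bcl2 had 7.81, 8.12 and 8.02 in D6, against 8.23, 8.55 and 8.29 in D4 (-0.37 ± 0.10, adjusted p = 0.0321). The groups did not overlap, but the call was lost without any 1 of the 6 arrays (adjusted p up to 0.141), and the other 4 detected probes of Bcl2 gave -0.52 to 0.08. Mcl1 had 11.24, 11.10 and 11.18 in D6, against 11.38, 11.39 and 11.13 in D4 (-0.13 ± 0.11, adjusted p = 0.567), and Bcl2l1, BCL-XL, differed by -0.18 ± 0.12. Of 16 detected death receptor and caspase genes 1 was called, near the 9.3% of all genes called. It was the ubiquitin ligase Birc2 (-0.36 ± 0.09, adjusted p = 0.0315), and its call was lost without any 1 of the 6 D6 and D4 arrays (adjusted p up to 0.156). Fas (0.32 ± 0.11) and Fasl (0.14 ± 0.14) did not pass.

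Genes induced through the T cell receptor fell in part. Cd69, an early activation antigen that holds T cells in lymph nodes, had 11.50, 11.39 and 11.65 in D6, against 12.17, 12.21 and 12.57 in D4 (-0.81 ± 0.10, adjusted p = 0.000254). Dusp1, a phosphatase of p38 and JNK, had 9.99, 9.26 and 9.28 in D6, against 10.9999, 10.56 and 10.54 in D4 (-1.19 ± 0.09, adjusted p = 1.91e-05). Dusp2, which acts on ERK, had 11.64, 11.51 and 11.61 in D6, against 12.28, 12.09 and 12.41 in D4 (-0.67 ± 0.09, adjusted p = 0.000605). In all 3 genes the D6 arrays were below every D4 array. Of 9 detected MAP kinase phosphatase and Sprouty family genes, 4 fell and 0 rose, with a median of -0.27, against 4.18% of all genes falling. Beside Dusp1 and Dusp2, the other 2 were Dusp4 (-0.48 ± 0.10) and Dusp6 (-0.46 ± 0.10, adjusted p = 0.0159). Dusp6 lost its call without D4 replicate 1 or 2 or D6 replicate 1 or 3 (adjusted p up to 0.0861), and the other 3 probes of Dusp4 gave -0.26 to -0.09. Among 11 immediate early and NR4A genes 2 fell and 0 rose, against 4.18% of all genes falling. Cd69 and the G protein regulator Rgs16 (-0.54 ± 0.09) fell, whereas Egr1 (-0.20 ± 0.10), Egr2 (0.05 ± 0.10), Egr3 (-0.22 ± 0.10) and Nr4a3 (-0.14 ± 0.11) were not called. The fit without the block left 1 call in that list.

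Some costimulatory and activation receptors fell. Cd86, better known as the B7 ligand of antigen-presenting cells and also made by activated T cells, had 8.19, 8.36 and 8.19 in D6, against 9.64, 9.57 and 9.29 in D4. The groups were far apart relative to their spread, the gene fell by 1.25 on the log2 scale (-1.25 ± 0.18, adjusted p = 0.000914), and its other 2 probes gave -1.30 and -1.5. Of 10 detected costimulatory and SLAM family genes, 4 fell and 0 rose, against 4.18% of all genes falling. Cd96, a receptor for nectin-family ligands, fell by 0.70 on the log2 scale (adjusted p = 0.00419). Cd81, a tetraspanin (-0.53 ± 0.12), and Cd226, an activating receptor (-0.57 ± 0.15), were called, but not without D4 replicate 1 or 2 or D6 replicate 3 (adjusted p up to 0.0902 for Cd81 and 0.198 for Cd226). Cd81 also lost its call without D6 replicate 2, and Cd226 without D3 replicate 3, D4 replicate 3 or D6 replicate 1. The count for the list was 2 without D4 replicate 1 or 2 or D6 replicate 3 and 2 without the block. Of 10 detected genes of the TNF receptor superfamily, 2 fell and 1 rose, against 4.18% and 5.12% of all genes. Tnfrsf9, 4-1BB, fell by 0.71 on the log2 scale (adjusted p = 0.00446) and Tnfrsf18, GITR, by 0.61 (adjusted p = 0.00367), while Tnfrsf4, OX40 (-0.04 ± 0.12), and Cd27 (0.03 ± 0.10) were not called. Tnfrsf26 rose by 0.55 ± 0.14 (adjusted p = 0.0279), a call lost without D4 replicate 1, D4 replicate 3 or D6 replicate 1 (adjusted p up to 0.142) and without the block (adjusted p = 0.0640). Of 10 detected inhibitory receptor genes and Tox, 1 rose and 1 fell, against 5.12% and 4.18% of all genes. Lag3 rose (0.57 ± 0.14, adjusted p = 0.0229) and Tox fell (-0.43 ± 0.12, adjusted p = 0.0463). Lag3 lost its call without any 1 of the D4 arrays, D6 replicate 1 or D6 replicate 2 (adjusted p up to 0.122), and Tox without any 1 of the 3 D6 or 3 D3 arrays, D4 replicate 2 or 3 or D8 replicate 1 (adjusted p up to 0.193).

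Quiescence genes did not move as a block. Of 19 detected, 4 fell and 1 rose, against 4.18% and 5.12% of all genes. Tsc22d3, the glucocorticoid-induced leucine zipper, had 8.54, 8.81 and 8.89 in D6, against 9.68, 9.91 and 9.91 in D4 (-1.09 ± 0.14, adjusted p = 0.000506). Klf2, which maintains naive T cell quiescence and the egress receptor S1PR1, had 9.88, 9.999 and 10.20 in D6, against 8.99, 8.79 and 9.09 in D4, and rose by 1.07 ± 0.11 (adjusted p = 0.000129). These 2 members thus moved in opposite directions with no overlap between the groups. The PI3 kinase inhibitor Pik3ip1 fell by 0.85 on the log2 scale (adjusted p = 0.00647) and Dusp1, also on this list, fell as given above. Foxp1, which restrains naive T cell activation, had 9.16, 9.11 and 9.18 in D6, against 9.82, 9.48 and 9.94 in D4 (-0.60 ± 0.13, adjusted p = 0.0137), a call lost without D4 replicate 1 or 3 or D6 replicate 3 (adjusted p up to 0.0792). Foxo1 (-0.12 ± 0.11), Foxo3 (-0.10 ± 0.12) and Klf3 (-0.17 ± 0.10) were not called. In the PI3 kinase pathway Sgk1 rose and the regulatory subunit gene Pik3r3 fell by 0.86 on the log2 scale (adjusted p = 0.00440), and the other 16 detected genes were not called.

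Some receptors that guide T cells within and between tissues rose. Of 11 detected chemokine, lipid and homing receptors 4 were called higher and 0 lower, against 5.12% of all genes called higher. Beside Cxcr3, Gpr183, the oxysterol receptor EBI2 that draws cells to the follicle edge, had 10.11, 9.98 and 10.35 in D6, against 8.52, 8.64 and 9.28 in D4 (1.33 ± 0.15, adjusted p = 0.000195). Cxcr5, the follicular homing receptor, had 9.36, 9.41 and 9.82 in D6, against 8.79, 8.69 and 8.92 in D4 (0.73 ± 0.15, adjusted p = 0.00894). The groups did not overlap for either gene, and the other 2 probes of Cxcr5 gave 0.75 and 0.82, but the call of its brightest probe was lost without D6 replicate 3 (adjusted p = 0.0611). S1pr4 rose by 0.47 ± 0.13, a call lost without D4 replicate 1 or 3 or D6 replicate 1 or 3 (adjusted p up to 0.168), and the count of the list was 2 without D6 replicate 3. Ccr7, the receptor for lymph node entry, had 8.06, 8.29 and 8.14 in D6, against 8.33, 8.69 and 8.22 in D4 (-0.25 ± 0.16, adjusted p = 0.393), and Cxcr4 differed by 0.56 ± 0.22. Among 16 integrin and adhesion genes 3 rose and 1 fell, against 5.12% and 4.18% of all genes. Gcnt1, a glycosyltransferase that makes selectin ligands, rose by 0.90 ± 0.12 (adjusted p = 0.000470). Icam1 (0.47 ± 0.13) and Icam2 (0.46 ± 0.12), both integrin ligands, rose and the hyaluronan receptor Cd44 fell (-0.47 ± 0.11, adjusted p = 0.0193), but none of these 3 calls held in every single-array omission: Cd44 was lost without D4 replicate 2 or 3 or D6 replicate 2 or 3, Icam2 without any 1 of the D4 arrays or D6 replicate 2 or 3, and Icam1 without 9 of the 12 arrays, all but D3 replicates 2 and 3 and D4 replicate 3. Leaving out D4 replicate 1 or 2, or D6 replicate 2 or 3, left 1 integrin and adhesion gene called higher, as did the fit without the block. The other detected probes of Cd44 gave -0.45 to -0.15 and were not called.

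Among cytokine genes Il21 and Il4 rose, as given above, and the early cytokines split. Lif, a cytokine of the IL-6 family, had 6.38, 5.79 and 6.32 in D6, against 5.52, 4.69 and 5.72 in D4 (0.85 ± 0.13, adjusted p = 0.00150). Lta, lymphotoxin alpha, had 7.22, 7.72 and 7.60 in D6, against 8.09, 8.61 and 8.14 in D4 (-0.77 ± 0.15, adjusted p = 0.00692). Lif was above and Lta below its D4 range on all D6 arrays. Lif was detected on 2 of the 3 D4 arrays, and its call was lost without the block (adjusted p = 0.110). Il2 had 8.03, 7.36 and 8.11 in D6, against 8.34, 7.90 and 8.26 in D4 (-0.33 ± 0.15, adjusted p = 0.217), and Ifng, near the detection limit, was detected on 2 D6 arrays and 1 D4 array (0.14 ± 0.26). The chemokine gene Ccl4 fell (-0.60 ± 0.15, adjusted p = 0.0309), a call lost without D4 replicate 1 or 2 or D6 replicate 1 or 2 (adjusted p up to 0.168). Of 5 detected common gamma chain receptor genes, 0 were called by limma and 3 had an unadjusted p under 0.05. Il7r, the IL-7 receptor of long-lived T cells, had 7.30, 7.59 and 7.60 in D6, against 6.95, 6.91 and 7.83 in D4 (0.27 ± 0.23, adjusted p = 0.539), and Il2ra and Il2rb differed by -0.40 ± 0.14 and 0.42 ± 0.15. Without D4 replicate 3, Il2ra was called lower (adjusted p = 0.0275) and Il2rb higher (adjusted p = 0.0169). Il10ra, the IL-10 receptor, had 6.05, 5.93 and 5.90 in D6, against 4.96, 4.79 and 4.97 in D4 (1.05 ± 0.14, adjusted p = 0.000555). Tgfbr1 (-0.60 ± 0.13) and Ifngr2 (-0.53 ± 0.11) were called lower, but neither call was made without D4 replicate 1 or 2 or D6 replicate 3 (adjusted p up to 0.0572 for Tgfbr1 and 0.0772 for Ifngr2), and Ifngr2 also lost it without D6 replicate 1.

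Of 15 detected factors that define helper lineages and memory, 3 were called, against 9.3% of all genes tested: Zbtb32 and Batf rose and Id2 fell. Batf, an AP-1 family factor needed for Th17 and follicular helper cells, rose by 0.49 ± 0.11 (adjusted p = 0.0136), a call lost without D4 replicate 1 or D6 replicate 1 (adjusted p up to 0.0869). Id2, an inhibitor of E proteins, fell (-0.58 ± 0.15, adjusted p = 0.0335), a call lost without D4 replicate 1 or any 1 of the 3 D6 arrays (adjusted p up to 0.167). The other detected probes of Id2 gave -0.32 and -0.12 and were not called (adjusted p = 0.0736 and 0.687). Bcl6, the factor of follicular helper cells, had 10.16, 9.52 and 9.73 in D6, against 10.23, 9.88 and 9.51 in D4 (-0.07 ± 0.15, adjusted p = 0.840). Tbx21, T-bet, had 5.11, 5.07 and 4.84 in D6, against 4.92, 5.01 and 4.98 in D4 (0.04 ± 0.17, adjusted p = 0.927). Both sets of arrays overlapped. Gata3 (-0.07 ± 0.13), Foxp3 (-0.18 ± 0.09), Irf4 (-0.02 ± 0.11) and Lef1 (0.17 ± 0.12) were not called either.

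S100 proteins, annexins and galectins, calcium- and carbohydrate-binding proteins of membrane and cytoskeleton, had 7 of 16 detected members called higher, 0 lower and a median of 0.36. Over all genes tested, 5.12% were called higher. Anxa2 had 9.58, 9.16 and 9.27 in D6, against 7.68, 8.14 and 7.24 in D4 (1.65 ± 0.18, adjusted p = 0.000144). S100a6, calcyclin, had 6.15, 5.62 and 6.04 in D6, against 4.33, 4.73 and 4.57 in D4, where it was detected on 1 array (1.39 ± 0.22, adjusted p = 0.00173). Lgals1, galectin-1, had 10.81, 10.84 and 10.64 in D6, against 9.86, 9.78 and 9.45 in D4 (1.06 ± 0.15, adjusted p = 0.000748). None of these D4 values reached the lowest D6 value of its gene. S100a11 (0.96 ± 0.14), the intermediate filament gene Vim (0.87 ± 0.11) and S100a10, the partner of annexin A2 (0.59 ± 0.11), rose too. Lgals3 (0.64 ± 0.31), Anxa5 (0.28 ± 0.11) and Anxa6 (0.05 ± 0.11) were not called. Single-array omissions gave 6 or 7 calls, and the fit without the block gave 6.

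Type I interferon genes rose in part. Of 25 detected type I genes, 9 rose and 1 fell, with a median of 0.34, against 5.12% of all genes rising and 4.18% falling. Oas2 had 7.34, 7.82 and 8.40 in D6, against 5.76, 5.83 and 6.87 in D4. Ifitm3, a membrane protein that blocks virus entry, had 7.34, 7.50 and 8.03 in D6, against 6.27, 5.73 and 7.10 in D4 (1.26 ± 0.22, adjusted p = 0.00393). Oas3 had 5.53, 5.84 and 5.46 in D6, against 4.92, 4.90 and 4.81 in D4 (0.74 ± 0.11, adjusted p = 0.000955). D6 exceeded D4 in all 3 experiments for each gene, and for Oas2 and Ifitm3 the highest arrays of both divisions came from experiment 3. Mx2 (0.68 ± 0.11), Ifitm1 (0.71 ± 0.14) and the ubiquitin-like Isg15 (0.67 ± 0.16) rose, whereas the tetherin gene Bst2 (0.33 ± 0.33), Irf7 (0.28 ± 0.14), Ifit2 (-0.10 ± 0.13) and Ifit3 (0.25 ± 0.17) were not called. Rsad2, viperin, was called (0.85 ± 0.21, adjusted p = 0.0235) but not without D4 replicate 1 or 2 or D6 replicate 1 or 2 (adjusted p up to 0.106). Ifitm2 was the exception, with 7.10, 6.78 and 6.77 in D6, against 7.89, 7.78 and 7.12 in D4 (-0.72 ± 0.15, adjusted p = 0.00914), a call lost without D4 replicate 1 (adjusted p = 0.0501). Ifitm genes are close copies, and probes may share signal between them, which was not tested. The count of rising genes was 6 without D4 replicate 1 or 2 or D6 replicate 2, and 3 without the block. Interferon gamma targets were 11 in number, with 0 called higher and 1 called lower, the GTPase gene Gbp2 (-0.60 ± 0.13, adjusted p = 0.0106), which lost its call without D4 replicate 1 or D6 replicate 1 (adjusted p up to 0.0686). Irf1 had 12.14, 12.20 and 12.27 in D6, against 12.55, 12.42 and 12.54 in D4 (-0.30 ± 0.09, adjusted p = 0.0680). Its groups did not overlap, yet it missed the threshold.

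Most lipid synthesis genes were not called. Of 16 detected sterol synthesis genes, 3 rose and 0 fell, against 5.12% of all genes rising, with a median of 0.31 and 15 of 16 differences above 0. Mvk, mevalonate kinase, had 5.79, 6.15 and 5.43 in D6, against 4.82, 4.84 and 4.65 in D4 (1.02 ± 0.12, adjusted p = 0.000299), and Mvd, the last mevalonate pathway enzyme before the isoprenoids, rose by 0.68 ± 0.13 (adjusted p = 0.00651). Every D6 array of Mvk exceeded every D4 array. The demethylase gene Cyp51 (0.47 ± 0.09, adjusted p = 0.00858) lost its call without D4 replicate 1 or D6 replicate 1 (adjusted p up to 0.0572), which left 2 calls in the list, as did the fit without the block. The sterol response element letters TCACNCCAC were in 0 of 13 sterol promoters, against 1.28% of genes tested and 1.44% of the table. Elovl6, a fatty acid elongase, rose by 0.89 ± 0.11 (adjusted p = 0.000299), and the other 11 detected fatty acid synthesis genes were not called.

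Most energy and growth genes were not called. In glycolysis 3 of 14 genes rose, against 5.12% of all genes, and 0 fell. The 3 were Pgk1 (0.52 ± 0.10), Tpi1 (0.44 ± 0.11) and Ldha (0.38 ± 0.09). These calls were fragile: Pgk1 lost its call without D4 replicate 1 (adjusted p = 0.0532), Tpi1 and Ldha without any 1 of the 6 arrays (adjusted p up to 0.147 and 0.116), and the count was 0 without D4 replicate 1, 1 without any other D4 or D6 array, and 1 without the block. Neither the 31 detected respiratory chain and ATP synthase genes (median 0.12), nor the 17 fatty acid oxidation and TCA cycle genes (median 0.01), the 28 proteasome genes (median 0.05) or the 21 chaperones (median 0.02) had a member called by limma, with 4, 3, 3 and 4 members at an unadjusted p under 0.05. Ribosome biogenesis genes had 0 of 32 called by limma and 8 at an unadjusted p under 0.05, with 25 of 32 differences below 0 and a median of -0.16. Cytosolic ribosomal proteins had 1 of 24 called (Rplp0, 0.39 ± 0.10, adjusted p = 0.0303), a call lost without any 1 of the D4 arrays, D6 replicate 1 or D6 replicate 2 (adjusted p up to 0.153).

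Of 23 detected markers of other cells 4 were called, Cd22, Cd72, Klrd1 and Derl3, against 9.3% of all genes tested. Among B cell markers 3 of 10 on the array were detected on at least 3 of the 6 arrays. Cd22, which inhibits B cell receptor signalling, had 6.06, 6.79 and 5.47 in D6, against 5.16, 4.93 and 5.31 in D4 (0.97 ± 0.26, adjusted p = 0.0397), and Cd72, a B cell lectin, had 6.90, 7.09 and 6.39 in D6, against 7.06, 7.96 and 7.46 in D4 (-0.70 ± 0.20, adjusted p = 0.0454). These 2 markers of the same cell type thus differed in sign. Cd22 lost its call without replicate 1 of D3, D4, D6 or D8 or replicate 2 of D4 or D6 (adjusted p up to 0.171). Cd72 lost it without replicate 3 of D3, D4, D6 or D8 or replicate 2 of D4 or D6 (adjusted p up to 0.202). The summed linear intensity of the B cell markers was 193 to 272 in D6, against 223 to 343 in D4. The NK receptor gene Klrd1 rose by 0.98 ± 0.12 (adjusted p = 0.000254), with 2 of 6 NK markers detected and a sum of 127 to 186 in D6, against 109 to 119 in D4, which did not overlap. Derl3, on the plasma cell list, fell by 0.67 on the log2 scale (adjusted p = 0.00271), with 5 of 8 detected and sums of 1898 to 2158 in D6, against 1715 to 2047 in D4. No myeloid (4 of 12 detected), dendritic (5 of 12), erythroid and platelet (2 of 6), stromal and endothelial (1 of 10) or CD8 T cell marker (1 of 5) was called by limma, and 1 myeloid and 2 dendritic markers had an unadjusted p under 0.05. Myeloid sums were 297 to 610 in D6, against 152 to 395 in D4, and their part in the changes above was not tested. Of 10 detected genes of the dissociation stress response, Socs3 was called, and Fos (-0.03 ± 0.19), Jun (0.23 ± 0.13) and Hspa1a (0.13 ± 0.14) were not.

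D4 and D6 are 2 divisions apart, as are D6 and D8, so the change over one interval was tested against the change over the next. Both intervals use the same D6 arrays, so error in D6 enters both and favours peaks and troughs in D6. Of 8891 genes, 15 differed (0.169%), 8 with the D6 minus D4 change above the D8 minus D6 change (0.09%) and 7 below it (0.0787%). The 7 include Bmf and Lrp11, which were detected on 0 of 3 D6 arrays and on 0 and 1 of 3 D8 arrays. Both were already at the detection limit in D6, so a further fall to D8 could not be measured and no difference between the intervals is read from them. By probes the count was 20 of 16394 (0.122%), 11 above (0.0671%) and 9 below (0.0549%). The count was 0 without the block (limma, 1011 probes at an unadjusted p under 0.05) and 0 without D4 replicate 1 or 2, D6 replicate 1 or 2, or D8 replicate 1, with 1257 to 1955 probes at an unadjusted p under 0.05. It was 12 without D3 replicate 3 or D6 replicate 3, 6 without D8 replicate 2 and 44 without D8 replicate 3.

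Zbtb32 was among the genes whose rise slowed: its mean level was 5.17, 5.94, 8.29 and 9.40 in D3, D4, D6 and D8, and the D6 minus D4 change exceeded the D8 minus D6 change by 1.24 ± 0.17 (adjusted p = 0.0201). Sytl2 had means that fell up to D6 and changed little after it, at 9.82, 9.15, 7.45 and 7.30 in D3, D4, D6 and D8 (difference between steps -1.55 ± 0.22, adjusted p = 0.0202). Its fall per division from D4 to D6 was not called different from that from D3 to D4 (-0.17 ± 0.16, limma adjusted p = 0.914). Several other genes had means that turned back after D6, but the change from D6 to D8 was not tested by itself. Gna14, a G protein alpha subunit, had means of 5.30, 5.97, 6.51 and 5.05 in D3, D4, D6 and D8 (difference between steps 2.01 ± 0.26, adjusted p = 0.0201). Gpr15, a homing receptor for the large intestine, had 4.96, 5.49, 6.45 and 5.60 (1.82 ± 0.31, adjusted p = 0.0470), and Lag3 had 9.25, 9.15, 9.72 and 8.68 (1.61 ± 0.24, adjusted p = 0.0245). Fhdc1, a formin-related cytoskeletal protein, and Synpo, an actin-binding protein, also had their highest mean in D6. The limma call of Fhdc1 from D4 to D6 was lost in 4 single-array omissions (adjusted p up to 0.0773) and without the block (adjusted p = 0.137). That of Gna14 (adjusted p = 0.0448) was lost in 7 single-array omissions (adjusted p up to 0.192) and without the block (adjusted p = 0.249). In the other direction Hap1, a huntingtin-binding protein, had means of 8.44, 7.97, 6.95 and 7.40 in D3, D4, D6 and D8 (-1.46 ± 0.17, adjusted p = 0.0196). Lmo4, a LIM-only transcriptional cofactor (-1.45 ± 0.18), Marcks, an actin-linked substrate of protein kinase C (-1.42 ± 0.22), and Ifitm2 (-1.62 ± 0.25) were also lowest in D6. The change per division from D4 to D6 was likewise set against the single division from D3 to D4, and 0 of 16394 probes differed by limma (0%), with 985 at an unadjusted p under 0.05.

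**Figure D5:**
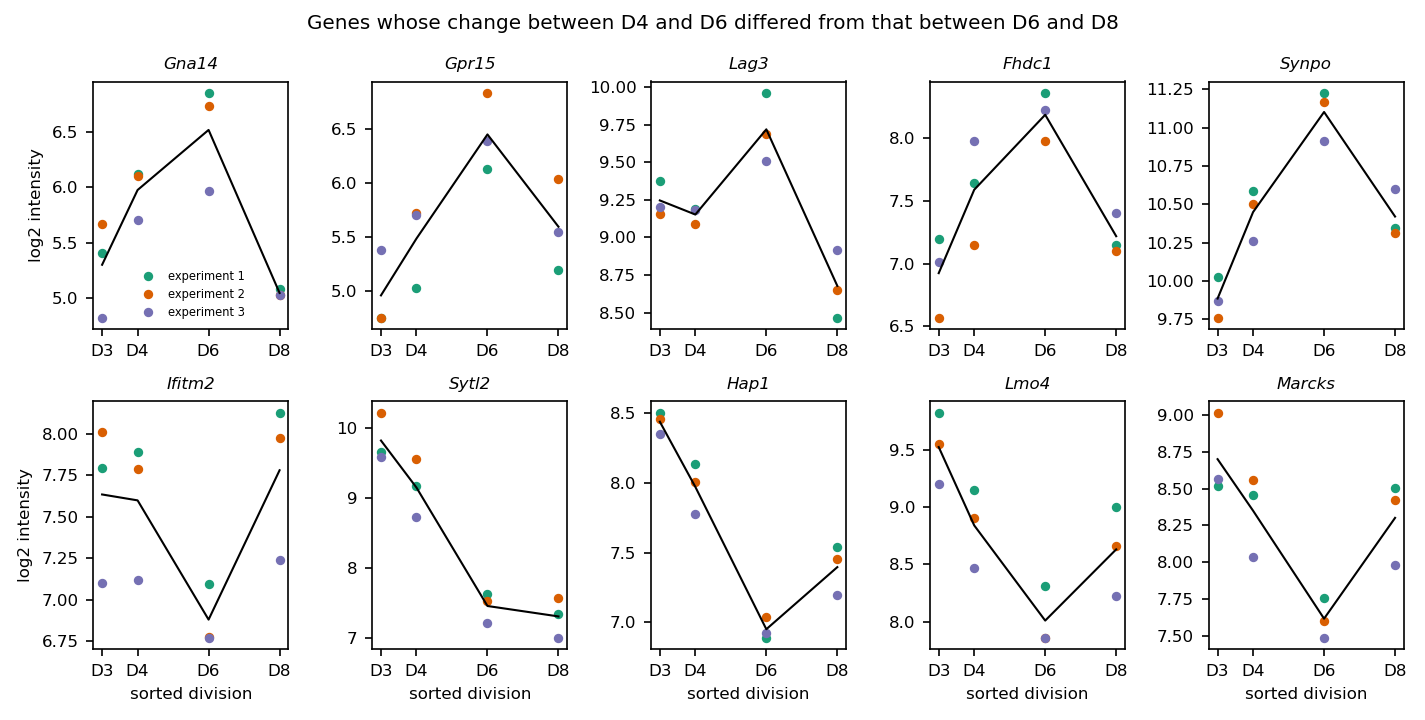
Log2 intensity (vertical) against the labelled number of divisions of D3, D4, D6 and D8 (horizontal) for 10 genes whose D4 to D6 change differed from their D6 to D8 change, with 1 point per array and a line through the means. Gna14, Gpr15, Lag3, Fhdc1 and Synpo peak in D6 in the top row, and in the bottom row Ifitm2, Hap1, Lmo4 and Marcks are lowest in D6 while Sytl2 drops from D4 to D6 and then levels off.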

How the data were processed

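The authors deposited a table of probe intensity values with a detection p-value per probe and array, and a second intensity table that they had background-subtracted and normalised. The arrays were read out with BeadStudio 2.0, per the submitters' processing notes, and the normalisation method is not given in the sources used here. Starting from the first table, background was corrected and arrays were quantile normalised on the log2 scale with neqc (offset 16, negative controls inferred from the detection p) in limma 3.58.1 under R 4.3.3. The 16394 probes that passed detection (p under 0.05) in 3 or more of the 6 D6 and D4 arrays were analysed, of which 2559 have no single gene symbol and are not named. One linear model with division means and the experiment as a block was fitted to all 12 arrays with lmFit and eBayes, so D3 and D8 add to the estimate of spread. P-values were adjusted by Benjamini-Hochberg. The fit was tested on simulated data. Depth is not defined for arrays, and 3 experiments limit the precision.

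The pairing comes from the labels, which give the experiment number. Deviations from the division means correlated at 0.145 to 0.419 within an experiment (18 pairs of arrays) and at -0.3735 to 0.0867 between experiments (36 pairs). Genes are represented by their brightest detected probe. Named genes are the 15 largest differences in each direction among genes detected on all 6 arrays, the 6 largest least folds in each direction, up to 4 called members of each of 55 gene lists with preset key genes, called markers of other cells, and the 6 largest genes in each direction of each comparison of steps. Other list members given as examples were chosen after their values were seen. The members and lists were chosen with earlier results of these data known. Lists are described by counts and medians without a test of their own. Of the 8891 genes tested, 7294 matched a RefSeq promoter by symbol, 1467 of them with more than 1. Alternatives covered the block, normalisation, background, detection filter, probe choice, arrays used and arrays left out.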

Additional observations from a re-analysis of the deposited data

How the results depend on the processing

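The D6 against D4 comparison called 1370 probes, and 552 with no replicate block, 905 with only the 6 D6 and D4 arrays and the block, 663 to 1439 with single arrays left out (663 without D4 replicate 1, 676 without D6 replicate 3, 768 without D6 replicate 1, 890 without D4 replicate 2) and 417 to 781 with a whole experiment left out. Other settings gave 948 (no detection filter) to 1846 (no background subtraction) calls, with 1233 from the authors' processed values. The comparison of the D6 and D8 steps called 20 probes, and 0 with no replicate block, 102 without background subtraction, 13 with the authors' processed values, 7 without the detection filter, 0 to 44 with single arrays left out, 12 without D6 replicate 3 or D3 replicate 3, 6 without D8 replicate 2, 44 without D8 replicate 3, and 0 to 16 with a whole experiment left out. The comparison of the D6 and D4 steps per division called 0, with 0 to 2 when single arrays and 0 to 1 when whole experiments were left out. Of 155 named genes 137 were called, 90 of them in all 12 single-array omissions and 90 without the block. The cause of these losses was not tested. The sign of some uncalled genes depended on the arrays left out, with log2 differences of Myc -0.37 to 0.055, Fasl -0.074 to 0.29, Il18r1 -0.26 to 0.46, Ifng -0.14 to 0.34, Tbx21 -0.080 to 0.13, Bcl6 -0.22 to 0.15 and Cd4 -0.019 to 0.12. With median centring Cd4 was -0.033. Irf1 was called lower in D6 without background subtraction (adjusted p = 0.0237), without the detection filter (0.0450) and on the brightest probe of each gene (0.0462). Of the other outcomes for named genes under these alternatives, 3180 were unchanged in direction and call, and 497 kept the direction but lost the call, 349 of them with arrays left out. A signal close to background limits Ifng, Il4, Il21 and Bmf.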

Other observations

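Chromatin, transport and stress genes held a few further changes. Atp1b1, a subunit of the sodium pump, had log2 levels of 7.66, 7.23 and 7.97 in D6, against 8.85, 8.74 and 8.77 in D4, and fell (-1.16 ± 0.13, adjusted p = 0.000164). Every D6 array was below every D4 array. Of 10 detected nutrient transporter genes the other call was the glutamine transporter gene Slc38a2 (-0.40 ± 0.10, adjusted p = 0.0334), lost without D4 replicate 1 or 3 or D6 replicate 1 or 3 (adjusted p up to 0.173), while the transferrin receptor gene Tfrc was not called (0.06 ± 0.09). Hmgb2, a DNA-bending chromatin protein, had 9.85, 9.84 and 10.20 in D6, against 9.01, 8.92 and 9.51 in D4 (0.81 ± 0.18, adjusted p = 0.0141), a call lost without D4 replicate 1, D4 replicate 2 or D6 replicate 3 (adjusted p up to 0.0834). Among 16 DNA methylation and Polycomb genes, 1 was called higher (Hmgb2) and 2 lower, against 5.12% and 4.18% of all genes. Tet1, a 5-methylcytosine oxidase (-0.40 ± 0.10), and Rnf2, the Polycomb ubiquitin ligase (-0.47 ± 0.10), were called lower. Tet1 lost its call without D4 replicate 2, D4 replicate 3 or any 1 of the D6 arrays (adjusted p up to 0.106) and Rnf2 without D4 replicate 3, D6 replicate 2 or D6 replicate 3 (adjusted p up to 0.0666). Dnmt1 (0.33 ± 0.12) and the methyltransferase gene Ezh2 (0.31 ± 0.16) were not called.

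Among regulators of transcription downstream of activation, Bcl3, a nuclear IκB protein, had 8.25, 7.84 and 7.97 in D6, against 7.39, 7.18 and 7.15 in D4 (0.78 ± 0.11, adjusted p = 0.000644). It was the 1 gene called of 14 NF-κB genes, near the 9.3% of all genes called. Mafg, a small MAF protein, rose by 0.75 ± 0.15 (adjusted p = 0.00736). It was the 1 gene called of 7 AP-1 genes, against 9.3% of all genes, though not without the block (adjusted p = 0.0619). Stat4 (0.43 ± 0.11) was called higher, a call lost without the block (adjusted p = 0.117), without any 1 of the 6 D6 and D4 arrays and without D3 replicate 1. Of 14 p53 target and GADD45 genes, 1 was called higher and 1 lower, against 5.12% and 4.18% of all genes. Ddit3, the stress factor CHOP, was called lower (-0.57 ± 0.12) and Gadd45g higher (0.37 ± 0.09). Ddit3 lost its call without D4 replicate 1, D6 replicate 1 or D6 replicate 3 (adjusted p up to 0.0672), and Gadd45g without any 1 of the 6 arrays (adjusted p up to 0.146). GIMAP GTPases, lymphocyte survival proteins, had 7 of 7 differences below 0 (-0.22 to -0.02) and 0 called by limma (1 at an unadjusted p under 0.05). A further 168 called probes carry no gene symbol and are not named.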
